A study of Mus musculus with 12 samples.

Results

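Neural progenitor cells (NPC) that had lost both copies of Chd8 were compared with NPC that had lost 1 copy, to ask what the loss of the second copy adds in this cell type. The comparison rests on the 4 libraries whose titles name NPC of the knockout (KO, CHD8-/-, labelled CHD8_KO) and of the heterozygote (HET, CHD8+/-, labelled CHD8_HET), 2 of each, out of 12 in the series. The cells were mouse and the NPC were derived from embryonic stem cells (ESC), which the design text places in 2i, a medium with inhibitors that hold them in a naive pluripotent state. HET and KO ESC, also with 2 libraries each, served as the nearest comparison and shared the estimate of spread, so that 8 libraries entered the fit. Wild-type libraries took no part in it. The labels give neither the altered allele, nor the number of lines or clones behind a genotype, nor whether the replicate libraries were grown separately, so that p-values measure no more than how these libraries vary, and that variation may be technical. Both genotypes carry at least 1 altered copy, and nothing here sets either of them against cells with 2 intact copies.

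CHD8 is an ATP-dependent chromatin remodeller of the chromodomain helicase family that binds mainly at active promoters and at some enhancers. It is known as a negative regulator of beta-catenin and p53 target genes, and loss-of-function variants in 1 copy of the human gene are among the strongest single-gene risk factors for autism. Complete loss is lethal in the early mouse embryo, while cultured cells without the protein can be kept. Neural progenitors divide and give rise to neurons and glia, and Chd8 dose in them has been linked to proliferation and to the timing of neuronal differentiation.

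What was measured was the abundance of transcripts in stranded libraries of total RNA depleted of ribosomal RNA. The deposited transcripts carry UCSC-style identifiers, of which 0 of 55419 matched the gene name tables used here, so transcripts are named by identifier, their genes and functions are not given and no sequence could be attached to them. For the same reason Chd8 itself, which would check the genotype labels, and the marker genes of progenitors, pluripotent cells, neurons and glia could not be read. In bulk RNA, fewer cells that express a transcript and less of it per cell cannot be told apart. Total estimated counts were 9945753 and 9731881 in the HET NPC libraries and 9089955 and 10813941 in the KO NPC libraries. The most abundant transcript, uc009vew.1, took 12.6% to 16.6% of the counts in HET NPC and 10.6% to 13.3% in KO NPC.

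In whole profiles the 2 genotypes were nearly as alike as replicates. Across transcripts, log2 CPM (the count of a transcript scaled to a common library size with TMM factors, on a log2 scale) correlated at r = 0.862 between the HET NPC replicates, at 0.874 between the KO NPC replicates and at 0.846 to 0.863 between a KO and a HET library. Transcripts are not independent replicates, so these values describe the libraries. Among the 10243 transcripts with a mean of at least 10 CPM over the 4 NPC libraries, 9874 (96.4%) differed less than 2-fold between the genotypes in the fit. The median size of the log2 difference between single libraries was 0.196 for the KO replicates, 0.223 for the HET replicates and 0.253 to 0.324 for a KO against a HET library.

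A single transcript, uc009uzd.1, passed the test between KO and HET NPC. In the edgeR quasi-likelihood test with Benjamini-Hochberg adjustment at 0.05, 1 of 28444 tested transcripts was lower in KO (0.00352%) and none was higher (0%). At an unadjusted p under 0.05, 1162 were higher (4.09%) and 1206 lower (4.24%). DESeq2 called 473 higher (1.92% of the 24583 to which it gave an adjusted p) and 496 lower (2.02%). Limma, on log2(TPM + 1), called 11 higher (0.0387%) and 25 lower (0.0879%), of which 9 and 20 were also DESeq2 calls in the same direction. The choice of tool therefore moved the count from 1 to 969, while all of them called uc009uzd.1.

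**Figure D1:**
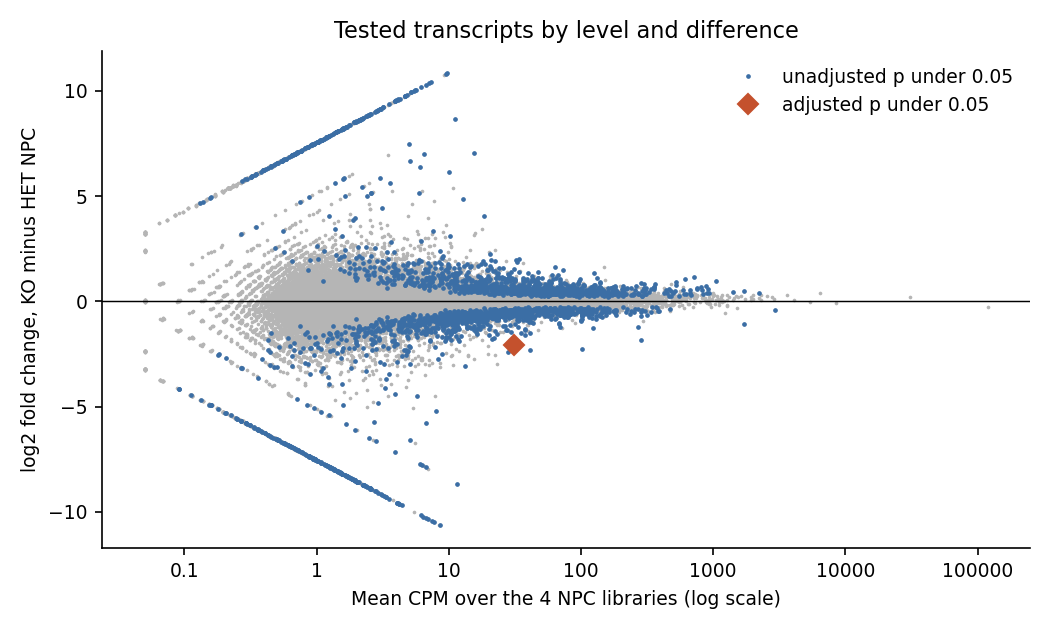
Each point is 1 of the 28444 tested transcripts, placed by its mean CPM over the 4 NPC libraries (x axis, log scale) and its log2 fold change, KO minus HET NPC (y axis). Blue points have an unadjusted p under 0.05, and the diamond is the 1 transcript with an adjusted p under 0.05. The cloud narrows as the level rises, and the straight edges on both sides are transcripts with no or nearly no counts in 1 of the genotypes.

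uc009uzd.1, a transcript of 1801 bases, stood at 52.9 and 48.5 CPM in the HET NPC libraries and at 11.9 in each of the KO NPC libraries. The groups were far apart and the KO libraries almost equal. The log2 fold change fitted to it, KO minus HET, was -2.09 (SE 0.107, edgeR adjusted p = 0.0311), a level 4.25 times lower in KO. In ESC it stood at 105 and 101 CPM in HET and at 58.7 and 56.0 in KO, again without overlap, with a log2 fold change of -0.84 (SE 0.10) that did not pass (edgeR adjusted p = 0.171). The call in NPC ended when any of the 4 NPC libraries was left out (edgeR adjusted p = 0.141 to 0.242), and when the fit held the 4 NPC libraries and no others (0.371), with the fold change between -2.02 and -2.14 in those 5 fits.

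By the rule for named transcripts, the other places went to those with the lowest unadjusted p at a mean of at least 5 CPM and with no overlap. None of these passed. uc007lkm.1 (1509 bases) stood at 51.4 and 61.3 CPM in HET NPC and at 17.9 and 19.6 in KO NPC. The fitted difference was -1.59 on the log2 scale (SE 0.151, edgeR adjusted p = 0.16). In ESC the order of the genotypes was the other way round, with 13.6 and 14.1 CPM in HET and 19.1 and 17.5 in KO. KO NPC thus lay at about the level of both ESC genotypes, and HET NPC above them.

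uc009qoc.1 (4962 bases) stood at 0.275 and 0.263 CPM in HET NPC and at 19.7 and 20.1 in KO NPC. The HET values rest on 6 counts in all against 436 in KO (edgeR adjusted p = 0.148). The ratio was 71.8 with an exact 95% interval of 32.7 to 197. That interval covers counting error only, and not the choice of the transcript by these same values. In ESC uc009qoc.1 was near absent in HET too, at 0.251 and 0.083 CPM, and at 8.15 and 4.91 CPM in KO. In both cell types the transcript was therefore read in KO and hardly at all in HET.

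uc009txy.1 (5311 bases) had 1 count in 1 HET NPC library and none in the other, and 15.7 and 28.8 CPM in the KO NPC libraries. The ratio of summed counts, 498 to 1, had an exact 95% interval from 88.0 upward (edgeR adjusted p = 0.16). This interval too makes no allowance for the choice of the transcript by these values. In ESC both genotypes had the transcript, at 10.8 and 17.0 CPM in HET and 24.5 and 43.6 in KO. HET NPC was the group without it.

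**Figure D2:**
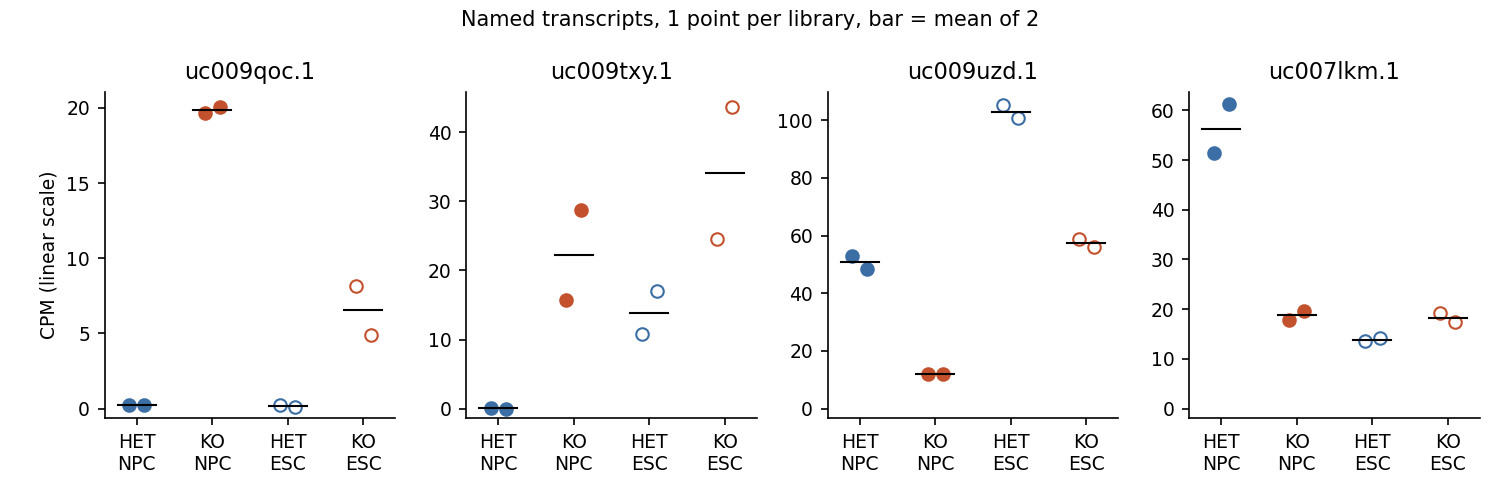
CPM (y axis, linear, own scale in each panel) of the 4 named transcripts in the HET (blue) and KO (orange) libraries of NPC (filled) and ESC (open), 1 point per library with a bar at the mean of 2. uc009qoc.1 was above 4 CPM in KO libraries alone, and uc007lkm.1 stood above 50 CPM in HET NPC alone.

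All-or-none patterns of this kind were found in like number in both directions. The rule asked for no count after rounding in either library of a genotype and a mean of at least 5 CPM in the other. Of the 55084 transcripts left after merging equal ones, 50 were read in KO NPC alone and 51 in HET NPC alone. The former reached 5.14 to 21.6 CPM (median 8.48) and the latter 5.04 to 19.3 CPM (median 6.88). Set against a floor of 3 counts per library, they were at least 16.9-fold to 70.9-fold higher and at least 16.7-fold to 64.0-fold higher in the genotype that had them, by the mean of its 2 libraries. The minimum of 5 CPM in the rule fixes the low end of these folds, so they describe the members and test nothing. The 2 libraries of the genotype with counts were often unequal. Both reached 5 CPM for 24 of the 50 and 22 of the 51. The lower one held fewer than 3 counts for 3 and 2 of them. Counts in all 4 ESC libraries were found for 12 of the 50 and 11 of the 51, and 11 and 11 were also without counts in ESC of the genotype that lacked them in NPC. Of these 11 and 11, 2 and 3 had no counts in any ESC library. No share over all transcripts of like level was set beside these ESC counts, so they describe the members only. Kallisto divides reads among similar transcripts, so a transcript at 0 does not show that its gene is silent.

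Larger differences at well measured levels were few. Of the 10243 transcripts at 10 CPM or more, 184 were at least 2-fold higher in KO with no overlap between the genotypes (1.8%) and 139 at least 2-fold lower (1.36%). At least 4-fold differences numbered 17 in each direction. Without a limit on the fold, the 2 KO libraries lay above both HET libraries for 6098 of all tested transcripts (21.4%) and below both for 5593 (19.7%).

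The same transcripts were then read in KO against HET ESC. For this they had to reach 10 CPM in ESC as well, while the difference between the genotypes in ESC did not enter the choice. Among the 8776 transcripts at 10 CPM or more in both cell types, the 106 that were at least 2-fold higher in KO NPC stood at a median of 0.37 on the log2 scale when KO ESC were set against HET ESC, and 79 of them (74.5%) were above 0, where 52.3% of all 8776 were. Of the 106, 40 (37.7%) were higher in both KO ESC libraries than in both HET ESC libraries, beside 26% of the 8776, and 6 (5.66%) lower in both. For the 109 at least 2-fold lower in KO NPC, the ESC median was -0.32, with 79 (72.5%) below 0, beside 47.7% of the 8776. Of these, 40 (36.7%) were lower in ESC without overlap, beside 23.2%, and 12 (11.0%) higher. A 2-fold difference without overlap in both cell types was seen for 21 higher transcripts (19.8% of the 106 and 13.6% of the 154 such transcripts in ESC) and for 12 lower ones (11.0% of the 109 and 10.9% of 110). Stretches of neighbouring rows, described next, held 40 of the 109 lower transcripts and 6 of the 106 higher ones. Outside them the ESC medians were 0.43 and -0.24.

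The broadest difference between KO and HET NPC lay in long runs of transcripts that are neighbours in the deposited table. The 19476 tested transcripts with a mean of at least 2 CPM in NPC were divided, in row order, into 194 blocks of 100. The last block took the remainder and held 176. A block's value is the median log2 fold change of its transcripts, from which the median over the 194 blocks was subtracted. A block counted as shifted if it lay past 0.25 and each of the 4 pairs of a KO and a HET library gave the same sign. By this rule 25 blocks were lower in KO and 2 were higher. The least shifted of them stood at 0.252 and the nearest block outside the limit at 0.246, both in size. The SD over block medians was 0.169 between the genotypes, against 0.0471 between the KO NPC replicates and 0.0563 between the HET NPC replicates, where no block passed 0.25 and the furthest lay 0.115 and 0.159 from 0. The sources used here give no meaning to the row order, and 2 libraries against 2 allow no exact p below 0.333, so the runs are given without a test. No positions could be attached to the rows, so whether a run is a chromosome or a segment of one, and whether its copy number differs between the cell lines, was not tested.

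**Figure D3:**
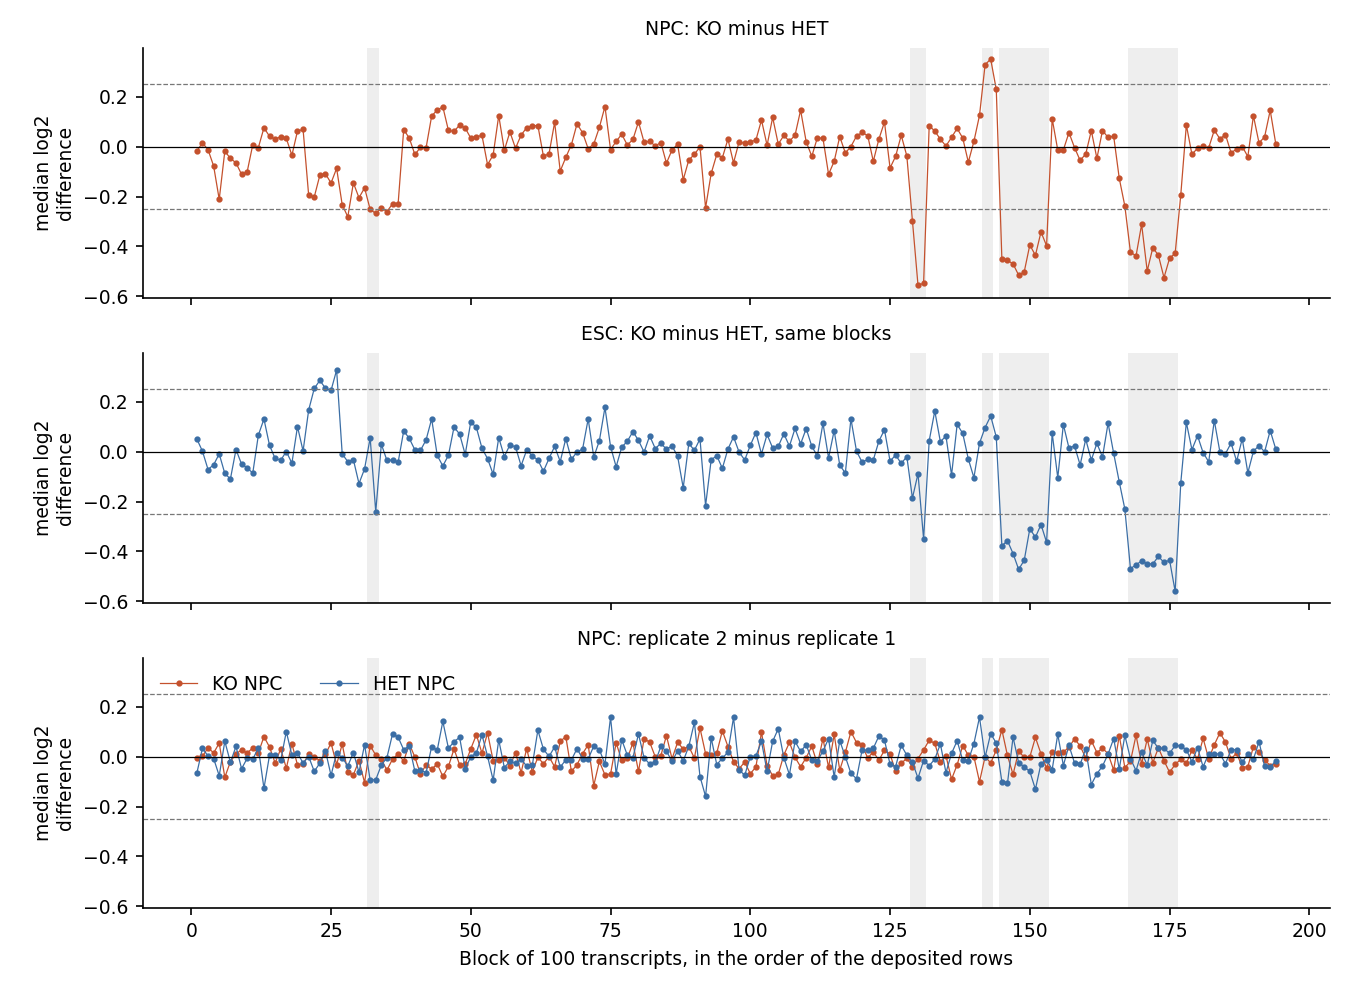
Median log2 difference of each block of 100 transcripts (y axis), relative to the median block, along the deposited row order (x axis), for KO minus HET in NPC (top), the same blocks in ESC (middle) and replicate 2 minus replicate 1 in NPC (bottom). The last block holds 176 transcripts. Grey bands are the 5 stretches and dashed lines the limits of 0.25. The longest bands, of 9 blocks each, drop to a similar depth in NPC and ESC, and no replicate difference passes a dashed line.

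Neighbouring shifted blocks formed 5 stretches with 25 blocks and 2500 transcripts, 12.8% of those in blocks. They span rows 8292 to 8752, 35567 to 36400, 39098 to 39567, 39903 to 42840 and 47528 to 49829 of the table. In this order they are called stretches 1 to 5. Stretch 3 was higher in KO NPC and the other 4 were lower. Together the lower stretches held 11.8% of the transcripts and 496 of the 961 with an unadjusted p under 0.05 and a fall in KO (51.6%). Since the same fold changes chose the stretches, that share describes them and tests nothing.

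Stretch 5, of 9 blocks and 900 transcripts, lay at a median log2 fold change of -0.43 in NPC. Measured as the median log2 CPM of its transcripts minus the mean of the 4 NPC libraries, it stood at 0.190 and 0.198 in the HET libraries and at -0.195 and -0.200 in the KO libraries. The genotypes were far apart and the replicates within 0.01 of each other. Block medians ran from -0.31 to -0.53. In ESC the stretch stood at 0.230 and 0.218 in HET and at -0.218 and -0.212 in KO, a median log2 fold change of -0.46. Its 9 blocks there ran from -0.42 to -0.56. The blocks just before and after it lay at -0.24 and -0.19 in NPC.

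Stretch 4, also of 9 blocks and 900 transcripts, had a median of -0.45 in NPC and -0.38 in ESC. Its level was 0.219 and 0.177 in the HET NPC libraries and -0.211 and -0.195 in the KO NPC libraries. In ESC it was 0.159 and 0.190 in HET and -0.172 and -0.170 in KO. Its edges were abrupt. The block before it stood at 0.23, its first block at -0.45, its last at -0.40 and the block after it at 0.11.

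Stretch 2, of 3 blocks, was lower by a similar amount in NPC. Its median was -0.50 in NPC, with the HET libraries at 0.237 and 0.203 and the KO libraries at -0.200 and -0.224. In ESC its median was -0.24, with HET at 0.123 and 0.090 and KO at -0.086 and -0.144. Stretch 3, of 2 blocks, was the 1 stretch higher in KO NPC, at a median of 0.34, and stood at 0.14 in ESC. HET NPC stood at -0.205 and -0.167 there and KO NPC at 0.212 and 0.189. Stretch 1, also of 2 blocks and just past the limit, had a median of -0.26 in NPC and -0.08 in ESC, where the libraries of the genotypes overlapped. uc007lkm.1 lies in it, while the other 3 transcripts named above lie in no stretch. Whether the stretches differ between NPC and ESC was not tested.

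**Figure D4:**
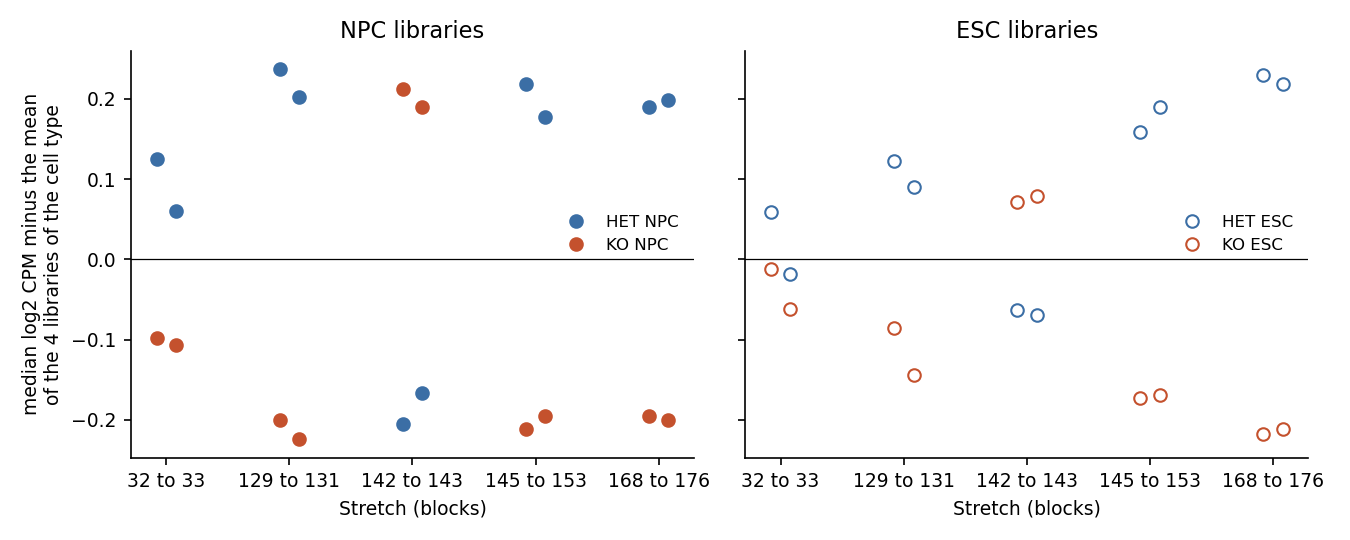
Level of each of the 5 stretches (x axis, by block numbers) in each library, as the median log2 CPM of its transcripts minus the mean of the 4 libraries of the cell type (y axis), for NPC (left) and ESC (right), with HET in blue and KO in orange. HET and KO NPC libraries are separate in all 5 stretches, and in ESC the 2 longest show a distance near that in NPC.

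Within the 3 lower stretches furthest from 0, most transcripts lay below 0, which the rule for a shifted block largely fixes, so that these shares describe the stretches and test nothing. In stretch 5, 85.2% of the 900 transcripts had a fold change below 0, with quartiles of -0.72 and -0.17, beside 50.4% and quartiles of -0.27 and 0.27 for the 16976 transcripts outside all stretches. In stretch 4 the share was 83.9% and in stretch 2 it was 84.3%. In stretches 4, 5 and 2, respectively, 53.8%, 54.2% and 51.7% of transcripts were lower in both KO libraries than in both HET libraries, where 20.5% of all transcripts in blocks were, and 5%, 5.56% and 7.67% were higher in both, where 24.7% were. All levels took part. In stretch 4 the median was -0.50 for 402 transcripts at 2 to 10 CPM, -0.45 for 413 at 10 to 100 CPM and -0.34 for 85 at 100 CPM or more. In stretch 5 these medians were -0.38 for 404, -0.48 for 437 and -0.31 for 59. Transcript lengths were close to those elsewhere, with medians of 2924 and 2882 bases against 3006 outside.

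ESC and NPC share no library, and over all 194 blocks their block medians correlated at r = 0.754. Over the 169 blocks outside the stretches r was 0.226. Points in each case are blocks from the same 8 libraries, so these values are descriptions. Of the 27 shifted blocks, 26 had the same sign in ESC and 19 were past 0.25 there as well. Outside the stretches the SD over block medians was 0.092 in NPC, above the 0.0471 and 0.0563 of the replicates over all 194 blocks. The blocks outside still included the shifted blocks 28 and 35, which have no shifted neighbour, and blocks just under the limit.

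A wider and shallower fall lay around stretch 1. All 11 blocks from 27 to 37 (rows 7152 to 9771, 1100 transcripts) stood between -0.15 and -0.28 in NPC and between -0.24 and 0.06 in ESC. The HET NPC libraries were at 0.084 and 0.083 and the KO NPC libraries at -0.077 and -0.108, while ESC libraries lay at 0.018 and -0.009 in HET and 0.013 and -0.035 in KO, with overlap. These 11 blocks were picked out after the values had been seen, and 2 of them form stretch 1. The fall in NPC did not start with them. Blocks 21 to 26, just before, were also lower in KO NPC, at -0.09 to -0.20. Every pair of a KO and a HET NPC library gave that sign. Blocks 20 and 38, on either side of the whole fall, both stood at 0.07 in NPC. In ESC blocks 21 to 26 were higher in KO, at 0.17 to 0.33, and they are described apart below.

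Transcripts that change when ESC become NPC were then followed in KO against HET NPC. The lists came from the mean of the 4 NPC libraries against the mean of the 4 ESC libraries, a contrast that weighs HET and KO alike, and held 3489 transcripts higher in NPC (12.3% of those tested) and 3403 lower (12%, edgeR adjusted p under 0.05). In KO against HET NPC the higher list stood at a median of 0.15 on the log2 scale, with 2260 above 0 (64.8%), beside a median of 0.00365 and 50.2% for all 28444. Its median level relative to the mean of the 4 NPC libraries was -0.106 and -0.019 in HET and 0.104 and 0.054 in KO. Both KO libraries lay above both HET libraries, with HET replicate 1 lowest and HET replicate 2 nearer to KO. Of the list, 271 were higher at an unadjusted p under 0.05 (7.77%) and 107 lower (3.07%), beside 4.09% and 4.24% of all tested. In KO against HET ESC its median was 0.09.

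The lower list had a median of -0.06 in KO against HET NPC, with 1437 of 3403 above 0 (42.2%). Its libraries overlapped, at 0.071 and -0.007 in HET and -0.077 and 0.018 in KO. Its median turned to 0.05 without HET NPC replicate 1 and was -0.25 without KO NPC replicate 2, so no direction can be given. At an unadjusted p under 0.05, 240 were higher (7.05%) and 430 lower (12.6%), both above the 4.09% and 4.24% of all tested. The median of the higher list was 0.10 to 0.22 when an NPC library was left out. The lists rest on the same libraries and the same fit as the fold changes set beside them. Choice by adjusted p in that fit favours transcripts with a small spread and a higher level. The median level was 13.5 CPM in the lower list, against 4.82 for all tested. The shares of both lists with an unadjusted p under 0.05 are therefore descriptions and test nothing.

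**Figure D5:**
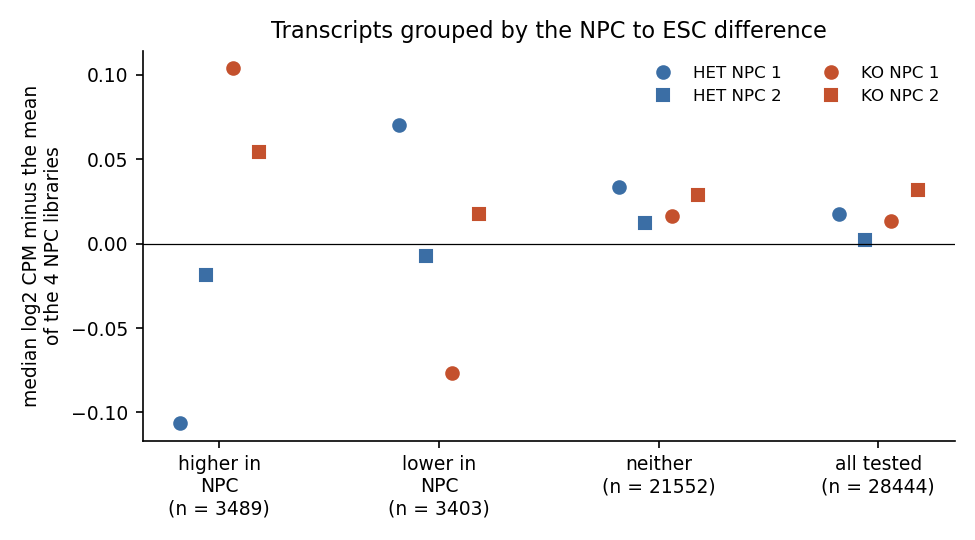
Median log2 CPM minus the mean of the 4 NPC libraries (y axis) for transcripts higher in NPC than in ESC, lower, neither, and all tested (x axis), in each NPC library, with HET in blue, KO in orange, circles for replicate 1 and squares for replicate 2. In the list higher in NPC both KO libraries lie above both HET libraries, and in the lower list the genotypes overlap.

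The median difference between the genotypes also varied with the level. It was 0.11 for the 1407 transcripts at 100 CPM or more, with 66.7% above 0 and libraries at -0.082 and -0.017 in HET and 0.049 and 0.049 in KO. The 8836 at 10 to 100 CPM had a median of 0.03, the 13401 at 1 to 10 CPM one of -0.02 and the 4800 below 1 CPM one of -0.07. At 10 to 100 CPM the genotypes were separate, at -0.024 and 0.009 in HET and 0.019 and 0.028 in KO. At 1 to 10 CPM the HET libraries, at 0.084 and 0.014, spanned the KO libraries, at 0.024 and 0.049. Below 1 CPM the genotypes were not separate either. An unadjusted p under 0.05 was reached by 18.8%, 12.9%, 5.60% and 4.50% of these classes, from the highest level to the lowest, beside 8.33% of all tested. The list of transcripts higher in NPC had a median level of 19.3 CPM, against 4.82 for all tested, and the part of level in the list's value was not tested. Among transcripts at 10 CPM or more the list stood at 0.15 and all stood at 0.05. By length, the median was 0.10 for 132 transcripts of at most 300 bases, 0.07 for the next 1970 of up to 1000, -0.002 for 13475 of up to 3000, 0.006 for 12517 longer ones under 10000 and 0.09 for 350 of 10000 bases or more. For the shortest class the HET libraries, at 0.083 and -0.120, spanned the KO libraries, at 0.025 and 0.002. The genotypes also overlapped in the next class, and in the longest, where KO replicate 1 stood at 0.128 and the other 3 libraries between -0.020 and -0.0035.

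Whether the KO against HET fold change differed between NPC and ESC was tested as the difference of the 2 fold changes. The edgeR test called none of 28444 transcripts (0%), with a lowest adjusted p of 0.152, while 1723 had an unadjusted p under 0.05. For 799 of them the signed log2 fold change, KO minus HET, was higher in NPC than in ESC, and for 924 it was lower. The split goes by sign and does not give which change was larger in size. DESeq2 called 499 and limma none. In ESC alone 1 transcript was called between KO and HET (0.00352%, edgeR), uc011zak.1. After rounding it had no counts in HET ESC, and it had 22 and 23.9 CPM in KO ESC, but 4.68 and 4.65 CPM in HET NPC and 9.88 and 10.7 in KO NPC (edgeR adjusted p = 0.317 in NPC and 0.152 for the difference). The genotypes were separate in both cell types, and HET NPC had the transcript that HET ESC lacked. By the rule, 2 more were named for this difference, uc008ikm.1 and uc008pok.1, besides uc009txy.1 above. uc008ikm.1 had 5.41 and 6.59 CPM in HET NPC and 9.78 and 12.9 in KO NPC, and in ESC it had 4 counts in each HET library and none in KO (edgeR adjusted p = 0.359 for the difference). uc008pok.1 had 7.98 and 8.69 CPM in HET NPC and 5.97 and 6.57 in KO NPC, and in ESC none in HET and 4.86 and 3.72 CPM in KO (edgeR adjusted p = 0.263 for the difference).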

How the data were processed

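Per the submitters' processing notes, reads were trimmed with cutadapt 1.16 and quantified with kallisto on mouse build mm9; the kallisto version and the transcript set are not given in the sources used here. Per the file headers, the authors deposited an estimated count (an expected count, not whole) and a TPM value per transcript and library, with replicates kept apart. Transcripts of equal length and equal counts to 2 decimals in all libraries (552 in 217 sets) were merged, and counts were rounded. With edgeR 4.0.16 in R 4.3.3, transcripts kept by filterByExpr (minimum count 10) were scaled by TMM and fitted in 1 robust quasi-likelihood model with a mean for each of the 4 HET and KO groups (8 libraries, 4 residual degrees of freedom, common dispersion 0.318), tested two-sided with Benjamini-Hochberg adjustment over all 28444 transcripts. Each SE was obtained from the F statistic, as the size of the log2 fold change over the root of F. Limma 3.58.1 used the deposited TPM on the scale log2(TPM + 1), where low transcripts show too small a change, and DESeq2 1.42.0 used the rounded counts, with a local fit of the dispersion trend where its default could not be fitted. Fits were tested on simulated data. Alternatives were another scaling, filter, tool, set of libraries, replicate block, merging, block size or limit, and leaving out each library. Depth was about the same in the 4 NPC libraries, and 3 counts were 0.277 to 0.330 CPM. Intervals cover counting error only, and not the choice of the transcripts by the same values.

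Named transcripts were at most 2 in each direction with the largest fold change among those with an adjusted p under 0.05, a mean of at least 5 CPM in NPC and no overlap, and places left over went to the lowest unadjusted p at the same level. The members, lists and tests were chosen with earlier results of these data known. Gene and marker lists had been planned and could not be run without gene names.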

Additional observations from a re-analysis of the deposited data

Results flagged for a closer look

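Between KO and HET, every library moved one way in NPC and the opposite way in ESC for 3 named transcripts and for 1 run of rows. The difference of the log2 fold changes (NPC minus ESC) was -1.99 for uc007lkm.1, 5.92 for uc008ikm.1 and -9.06 for uc008pok.1, and none of these passed the edgeR test of the difference (adjusted p = 0.263, 0.359 and 0.263). The fitted values of uc008ikm.1 and uc008pok.1 depend on ESC groups without counts and are no measure of size, and both were named by this difference.

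In blocks 22 to 26 (rows 5927 to 7147, 500 transcripts), KO lay below HET in NPC and above it in ESC. The HET NPC libraries stood at 0.052 and 0.024 and the KO NPC libraries at -0.032 and -0.050, while the HET ESC libraries stood at -0.127 and -0.178 and the KO ESC libraries at 0.154 and 0.138. The median difference of the log2 fold changes was -0.41. The run was picked out after its values had been seen, and the difference was not tested. Block 21, just before the run, had the same signs, at -0.20 in NPC and 0.17 in ESC. It does not enter the values above. In NPC the fall ran on without a break into blocks 27 to 37.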

How the results depend on the processing

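The count of calls in NPC was 1 under both other scalings, both other filters, without merging and without the most abundant transcript. It was 0 with the NPC libraries alone, 0 with the replicate block and 0 to 0 without each NPC library, 2 with all 12 libraries, 36 and 146 by limma at pseudocounts of 1 and 0.1, and 969 by DESeq2. Where it was 0, 1705 to 2387 transcripts had an unadjusted p under 0.05. Replicate differences of KO and HET correlated at -0.049 in NPC and 0.064 in ESC, and nothing in the labels ties equal numbers together, so the numbers were not taken as pairs. With the block, uc009uzd.1 had an edgeR adjusted p of 0.66 at a log2 fold change of -2.08. The call in ESC ended when any single library of the fit was left out, which leaves 1 library in a group. The ESC count of 1 became 0 with the replicate block, 5 and 74 by limma and 1497 by DESeq2. It was also 0 at a mean of 10 CPM or more in NPC, a filter that left uc011zak.1 out of the test. For the difference between cell types it was 499 by DESeq2, 106 by limma at a pseudocount of 0.1 and otherwise 0. The 7 named transcripts kept their direction in all 109 alternative fits that tested them. Their choice by no overlap in NPC largely fixes this, so it describes them and tests nothing. The median of the list higher in NPC ran from 0.102 to 0.215 and that of the lower list from -0.251 to 0.0536 without single libraries, the last a reversal without HET NPC replicate 1. Shifted blocks numbered 42 at a limit of 0.15, 19 at 0.35, and 27 to 29 without single NPC libraries. All-or-none transcripts numbered 161 and 166 (KO alone, HET alone) at a mean CPM of at least 2, and 16 and 11 at 10. With 4 residual degrees of freedom, a transcript that was not called is not shown to be equal in the genotypes.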
